A study of Mus musculus with 12 samples.

Results

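Cholesterol is made from acetyl-CoA along a chain of enzymes, and the 30 genes described here are 21 enzymes of that chain, 5 genes of its control by sterol-sensing proteins and 4 genes that move, store or remove cholesterol. They are a listed set of symbols, found by matching the Ensembl identifiers of the count tables to GENCODE M21, and all 30 of the 30 were found among 53465 genes. Acetyl-CoA is joined into mevalonate, mevalonate is turned into isoprenoid units, these are condensed into squalene, and squalene is closed into lanosterol and trimmed to cholesterol. Most of these enzymes are targets of the sterol regulatory element-binding proteins, SREBPs, transcription factors held in the endoplasmic reticulum by the Insig proteins while sterol is plentiful and carried to the Golgi by Scap when it is not. Circulating cholesterol hardly enters the central nervous system, so its cells make their own, oligodendrocytes for the myelin membrane and astrocytes also for export to other cells.

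RNA came from glia of the brachial and thoracic spinal cord of C57BL/6 mice at postnatal day 7, all of genotype Aldh1L1-GFP/Olig2-tdTomato, dissociated with papain and sorted on a FACS Aria. Aldh1l1 encodes a folate enzyme of astrocytes, and Olig2 a regulator of oligodendrocyte development that also acts in the ventral cord. The fractions are labelled eGFP, tdTomato and eGFP/tdTomato and hold 4 libraries each, numbered 1, 2, 3 and 5, of total RNA sequenced on the BGISEQ-500. The labels give neither sort gates, nor the number of animals in a library, nor how the reporters were built, and no other treatment, so that, although the titles call the libraries biological replicates, p-values cover only the spread between them.

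Libraries held 12564767 to 36505583 gene counts, and 29361 genes, all 30 members among them, passed the filter on low counts. Levels are TMM-scaled CPM, a gene's share of its library's counts in a fixed total, given in the order of replicates 1, 2, 3 and 5 or as the mean ± SD of 4 libraries. Differences are log2 fold changes ± SE from edgeR's quasi-likelihood test with Benjamini-Hochberg adjustment over the 29361 genes, and a gene was called higher or lower at an adjusted p under 0.05. The sort is visible in the genes that the reporters are named for. Aldh1l1 stood at 209 to 693 CPM in eGFP, 531 to 912 in eGFP/tdTomato and 2.27 to 6.24 in tdTomato, and Olig2 at 1.73 to 8.75, 41.5 to 106 and 175 to 361. The summed level of 8 oligodendrocyte markers was 81900 to 113700 CPM in tdTomato against 297 to 944 in eGFP and 1122 to 2163 in eGFP/tdTomato, and that of 8 astrocyte markers was 391 to 535, 17110 to 25560 and 28700 to 34470. One library stands apart, eGFP replicate 1, with the fewest gene counts. It had 57.15% of its reads outside annotated genes, against 21.24 to 42.51% in the other libraries. In bulk samples, fewer cells of a type and less RNA per cell cannot be told apart.

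Promoters of 26 of the 30 members are in the RefSeq promoter table for GRCm38.p6, which gives 250 bases before to 50 bases after each start. They were searched on both strands for the core of the sterol regulatory element, TCACNCCAC, where SREBPs bind, and for CCAAT and GGGCGG, the motifs of the cofactors NF-Y and Sp1. Among 111 matches in the member promoters, no match of one motif shared bases with a match of another. The 150 bases before the start are printed for 7 members that stand for the contrasts described next: early enzymes (Hmgcs1, Mvk, Mvd), late enzymes with a larger and a smaller difference between fractions (Ebp, Sc5d), and the members with opposite large differences (Srebf1, from a start inside the gene, and Cyp27a1). Each is written 5′ to 3′ on the strand of its gene, and capitals mark CCAAT or its reverse complement ATTGG and, in Hmgcs1, the element core.
Hmgcs1, chr13:119690201-119690350, plus strand: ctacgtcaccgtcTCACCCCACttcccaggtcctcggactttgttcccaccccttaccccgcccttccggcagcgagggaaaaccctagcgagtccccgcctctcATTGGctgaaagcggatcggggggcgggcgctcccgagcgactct
Mvk, chr5:114444119-114444268, plus strand: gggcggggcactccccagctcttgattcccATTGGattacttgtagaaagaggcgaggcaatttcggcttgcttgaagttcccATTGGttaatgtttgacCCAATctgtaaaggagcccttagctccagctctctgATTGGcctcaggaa
Mvd, chr8:122443423-122443572, minus strand: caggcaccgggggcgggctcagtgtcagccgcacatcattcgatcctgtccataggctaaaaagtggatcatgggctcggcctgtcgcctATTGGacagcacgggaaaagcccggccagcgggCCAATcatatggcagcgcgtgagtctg
Ebp, chrX:8193513-8193662, minus strand: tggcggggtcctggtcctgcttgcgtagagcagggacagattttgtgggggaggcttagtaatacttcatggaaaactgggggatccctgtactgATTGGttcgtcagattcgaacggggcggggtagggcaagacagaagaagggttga
Sc5d, chr9:42264301-42264450, minus strand: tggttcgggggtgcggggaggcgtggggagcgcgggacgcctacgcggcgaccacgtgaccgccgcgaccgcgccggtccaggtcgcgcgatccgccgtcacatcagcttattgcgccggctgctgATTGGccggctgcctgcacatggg
Srebf1, chr11:60210472-60210621, minus strand: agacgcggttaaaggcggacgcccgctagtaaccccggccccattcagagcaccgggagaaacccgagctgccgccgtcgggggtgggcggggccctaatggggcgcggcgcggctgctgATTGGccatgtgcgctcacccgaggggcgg
Cyp27a1, chr1:74713385-74713534, plus strand: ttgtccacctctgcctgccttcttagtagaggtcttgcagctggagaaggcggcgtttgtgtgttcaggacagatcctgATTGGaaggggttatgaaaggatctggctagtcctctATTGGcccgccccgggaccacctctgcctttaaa
The exact core occurred in 1 of the 26 members, Hmgcs1, from 137 to 129 bases before the start, and in 1.47% of 17074 tested genes with a promoter. With 1 mismatch allowed, a search added after the first had been seen, it occurred in 11 of 26 members (42.3%) and in 28.0% of those tested genes. CCAAT occurred in 24 of 26 members (92.3%) against 41.8% of the tested genes, and GGGCGG in 24 of 26 (92.3%) against 51.5%. Counted over promoters of the same length, CCAAT was in 73.5% of the 34 member promoters and 37.4% of all 32851, and GGGCGG in 82.4% and 35.7%. Only windows without annotated exon bases could be printed. Among those, the windows of Acly, Cyp46a1, Scap and 2 of the 3 starts of Srebf1 held no CCAAT. A match is a description of letters and shows no binding.

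The summed level of the synthesis enzymes was highest in the tdTomato libraries. The 21 synthesis enzymes summed to 10590, 11180, 13630 and 9607 CPM in the tdTomato libraries, to 5867, 5209, 7041 and 6103 in eGFP/tdTomato and to 3080, 4554, 5854 and 4684 in eGFP. Every tdTomato library was above every other library, and the eGFP and eGFP/tdTomato libraries overlapped. The mean was highest in tdTomato for 20 of the 21 enzymes and 25 of the 30 members, against 29.2% of all tested genes. The mean of eGFP/tdTomato lay between those of the other fractions for 20 of the 21 enzymes, though in several, such as Acat2, it differed from eGFP by far less than the spread between libraries.

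Against tdTomato, 22 of the 30 members were lower in eGFP, beside 14.9% of all genes tested, and 3 were higher, beside 20.4%. All 4 eGFP libraries lay below all 4 tdTomato libraries for 18 members, where 14.3% of all genes did so, and above them for 2, where 19.6% did. The median log2 fold change of the members was -0.91, while it was 0.79 over all tested genes and 0.05 over protein-coding genes of at least 1 CPM. Among the enzymes, 20 of 21 were lower, with a median of -1.23, which is 2.35-fold. For eGFP/tdTomato against tdTomato, 17 members were lower, beside 12.4% of all genes, and 3 were higher, beside 16.8%. Their libraries lay below for 19 members, where 14.8% of all genes did, and above for 3, where 20.6% did, with a median of -0.60 against 0.70 over all genes and 0.11 over those protein-coding genes. In both comparisons all 8 oligodendrocyte markers were lower and 7 of 8 astrocyte markers higher than in tdTomato, and 1 astrocyte marker was lower in eGFP. Of 5 oligodendrocyte progenitor markers, 5 were lower in eGFP and 4 in eGFP/tdTomato. In eGFP, 7 of 7 fibroblast and mural markers (752 to 2082 against 8.0 to 17.5 CPM summed), 6 of 6 ependymal, 7 of 9 microglia and macrophage and 4 of 5 endothelial markers were also higher than in tdTomato. In eGFP/tdTomato these counts were 6, 5, 1 and 0. No marker of these lists was at 0 in all libraries of a fraction, and their part in the members' differences was not tested. These comparisons share the tdTomato libraries, so their similar directions are not independent of each other. Reads outside genes made up 21.24 to 31.46% of the tdTomato libraries, 29.05 to 57.15% of eGFP and 25.61 to 42.51% of eGFP/tdTomato. With that share as a covariate, 16 members stayed lower in eGFP than in tdTomato and 14 in eGFP/tdTomato, and the median of the first comparison moved to -0.55. Lower calls over all genes were 4372 in eGFP and 3628 in eGFP/tdTomato in the main fit, and 3619 and 3477 with the covariate. Without eGFP replicate 1, 23 members were lower in each comparison, beside 5091 and 5452 of all genes. Without tdTomato replicate 3 the counts were 18 for eGFP and 12 for eGFP/tdTomato, beside 3514 and 2888 of all genes. The member count of eGFP/tdTomato was also 12 without eGFP/tdTomato replicate 1 or 2, beside 3011 and 2990 of all genes. Without eGFP/tdTomato replicate 3 the members' median in that comparison was -0.98.

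**Figure D1:**
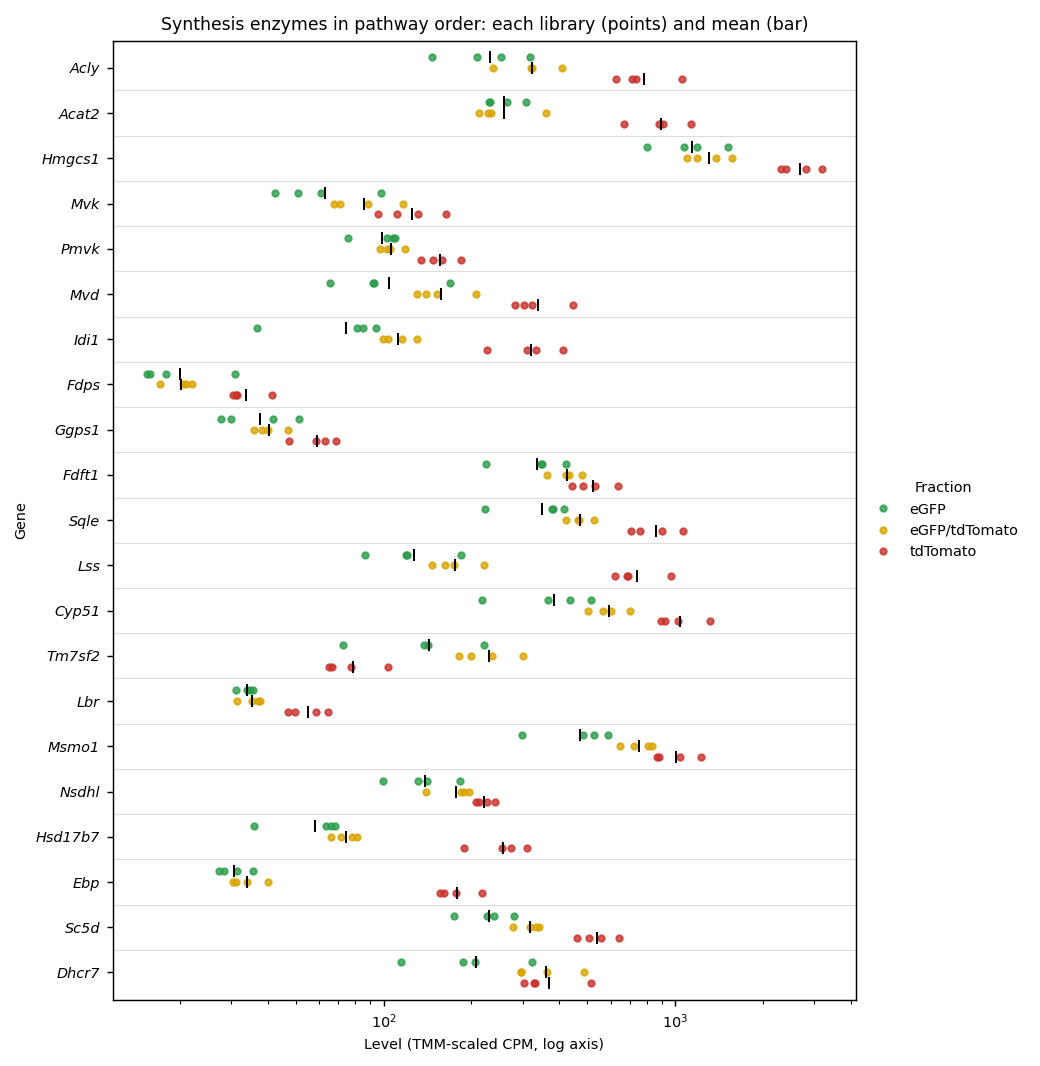
Level of the 21 synthesis enzymes in each library (TMM-scaled CPM, log axis), in pathway order from Acly to Dhcr7, with a black bar at the mean of 4 libraries. Points of the tdTomato fraction lie to the right for 20 enzymes by their mean, and to the left for Tm7sf2.

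Both enzymes that supply the chain with acetyl units were lower outside the tdTomato fraction. Acly (ENSMUSG00000020917, chr11:100476353-100528000, minus strand), which splits citrate to release acetyl-CoA in the cytosol, stood at 626, 736, 1052 and 711 CPM in tdTomato, 238, 322, 408 and 319 in eGFP/tdTomato and 146, 209, 319 and 253 in eGFP. No library of another fraction reached the lowest tdTomato library, and Acly was 3.37-fold lower in eGFP (-1.75 ± 0.25, adjusted p = 5.31e-05) and 2.43-fold lower in eGFP/tdTomato (-1.28 ± 0.25, adjusted p = 9.31e-04). Acat2 (ENSMUSG00000023832, chr17:12942890-12960747, minus strand), the thiolase that joins acetyl-CoA units into acetoacetyl-CoA, stood at 909.8, 1132, 881 and 666 CPM in tdTomato, 362, 213, 234 and 228 in eGFP/tdTomato and 265, 308, 231 and 230.3 in eGFP. Its difference was almost the same in both comparisons, -1.80 ± 0.22 in eGFP (adjusted p = 8.87e-06) and -1.79 ± 0.22 in eGFP/tdTomato (adjusted p = 9.94e-06). Part of its transcript is 97.7% identical to Acat3, which was at a mean of 0.950 to 5.53 CPM in the 3 fractions, small beside Acat2. Another part, of 445 bases, is 98.65% identical to Tcp1. Tcp1 was at a mean of 87.5 CPM in eGFP, 111 in eGFP/tdTomato and 224 in tdTomato. How reads were divided between these genes and Acat2 is uncertain.

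Among 4 mevalonate enzymes, all 4 were lower in eGFP and 3 were lower in eGFP/tdTomato than in tdTomato. Hmgcs1 (ENSMUSG00000093930, chr13:119690379-119708260, plus strand), the synthase that makes HMG-CoA and carries the element core in the promoter printed above, stood at 2820, 2405, 3193 and 2310 CPM in tdTomato, 1187, 1101, 1560 and 1382 in eGFP/tdTomato and 801, 1072, 1516 and 1185 in eGFP. Its groups did not overlap with tdTomato, and the difference was -1.23 ± 0.21 for eGFP (adjusted p = 2.81e-04) and -1.04 ± 0.21 for eGFP/tdTomato (adjusted p = 0.00134). Mvd (ENSMUSG00000006517, chr8:122433601-122443422, minus strand), which decarboxylates mevalonate diphosphate, ranged over 281 to 446 CPM in tdTomato, 130.1 to 208 in eGFP/tdTomato and 65.3 to 169 in eGFP, a difference of -1.69 ± 0.27 for eGFP (adjusted p = 1.45e-04) and -1.10 ± 0.27 for eGFP/tdTomato (adjusted p = 0.00505). The 2 kinases between them differed less. Mvk, which phosphorylates mevalonate first, was at 126 ± 29.4 CPM in tdTomato, 85.9 ± 22.3 in eGFP/tdTomato and 63.0 ± 24.5 in eGFP, with overlapping libraries, and was called in eGFP (-0.99 ± 0.27, adjusted p = 0.00849) but not in eGFP/tdTomato (-0.55 ± 0.26, adjusted p = 0.140). Pmvk, the next kinase, was at 156 ± 21.3, 106 ± 8.77 and 98.9 ± 15.8 CPM, lower in eGFP by -0.66 ± 0.17 (adjusted p = 0.00611) and in eGFP/tdTomato by -0.56 ± 0.17 (adjusted p = 0.0193). The second of these calls for Pmvk was lost without eGFP/tdTomato replicate 1, 2 or 5 or tdTomato replicate 2 or 3, at an adjusted p of 0.0554 to 0.101. Mvk was called in eGFP/tdTomato without eGFP replicate 1 (-0.76, adjusted p = 0.0191) and without eGFP/tdTomato replicate 3 (-1.01, adjusted p = 0.0123). It was also called with a filter of at least 1 CPM in 4 libraries (adjusted p = 0.0149), with DESeq2 (0.0359) and in a fit of the 2 fractions alone (0.0307).

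All 3 isoprenoid enzymes were lower in eGFP, and Idi1 by far the most. Idi1 (ENSMUSG00000058258, chr13:8885501-8892451, plus strand) interconverts the isoprenoid building units and stood at 226, 334, 413 and 311 CPM in tdTomato, 104, 99.3, 129.9 and 116 in eGFP/tdTomato and 36.7, 81.0, 94.4 and 85.2 in eGFP. The fractions were fully separated, with eGFP/tdTomato between, and Idi1 was 4.32-fold lower in eGFP (-2.11 ± 0.27, adjusted p = 1.43e-05) and 2.86-fold lower in eGFP/tdTomato (-1.52 ± 0.26, adjusted p = 3.26e-04) than in tdTomato. Fdps, which builds farnesyl diphosphate, was at only 15.4 to 31.0 CPM in eGFP and 30.5 to 41.5 in tdTomato, a difference of -0.75 ± 0.23 (adjusted p = 0.0178), and its level is uncertain because transcripts such as Gm3571 share 98.87% identity over 1062 bases with it. Ggps1, which extends farnesyl diphosphate for protein prenylation, was at 59.3 ± 8.94 CPM in tdTomato and 37.7 ± 11 in eGFP (-0.65 ± 0.21, adjusted p = 0.0230), and in eGFP/tdTomato it did not pass (-0.55 ± 0.21, adjusted p = 0.0581). Ggps1 shares 5.44% of its exon bases with Arid4b on the other strand. Arid4b was at a mean of 248 CPM in tdTomato, 97.3 in eGFP/tdTomato and 88.9 in eGFP. How far its reads enter the Ggps1 level is uncertain. The Fdps call in eGFP was lost without eGFP replicate 2 or tdTomato replicate 3 (adjusted p = 0.0599 and 0.0698). The Fdps call in eGFP/tdTomato (-0.74 ± 0.23, adjusted p = 0.0220) was lost without eGFP/tdTomato replicate 1, 2 or 5 or tdTomato replicate 3 (adjusted p = 0.051 to 0.0889). The Ggps1 call in eGFP was lost without tdTomato replicate 2 or 3 or eGFP replicate 3 (adjusted p = 0.0594 to 0.0729). In eGFP/tdTomato Ggps1 passed without eGFP replicate 1, 2, 3 or 5, eGFP/tdTomato replicate 3 or tdTomato replicate 5 (adjusted p = 0.007 to 0.0471). It also passed there with RLE factors, TMM factors from protein-coding genes, no filter, a filter of at least 1 CPM in 4 libraries, DESeq2 and the 2 fractions alone, at an adjusted p of 0.00463 to 0.0351.

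From farnesyl diphosphate to lanosterol, 3 of 3 enzymes were lower in eGFP and 2 in eGFP/tdTomato, and the estimates grew along the steps. Fdft1, squalene synthase, was at 524 ± 83.9 CPM in tdTomato, 424 ± 47.1 in eGFP/tdTomato and 335 ± 81.2 in eGFP, with -0.65 ± 0.20 for eGFP (adjusted p = 0.0197, lost at 0.0883 without tdTomato replicate 3) and -0.31 ± 0.20 for eGFP/tdTomato (adjusted p = 0.265). The latter passed at 0.0131 without eGFP replicate 1, at 0.0281 with the 1 CPM filter and at 0.0495 with the 2 fractions alone. One end of Fdft1 shares 18.31% of its exon bases with Ctsb on the other strand, a gene at a mean of 637 to 1288 CPM, and the strand setting of the counts is not given in the sources used here. Sqle (ENSMUSG00000022351, chr15:59315077-59331192, plus strand), which puts oxygen on squalene, stood at 760.0, 898, 1061 and 707 CPM in tdTomato, 465, 423, 525 and 467 in eGFP/tdTomato and 222, 379, 417 and 381 in eGFP. Its 3 fractions were separated in that order, by -1.29 ± 0.21 for eGFP (adjusted p = 1.57e-04) and -0.86 ± 0.21 for eGFP/tdTomato (adjusted p = 0.00462). Lss (ENSMUSG00000033105, chr10:76531588-76557138, plus strand), which closes the sterol rings, stood at 685, 686, 965 and 621 CPM in tdTomato, 147, 162, 220.4 and 175 in eGFP/tdTomato and 86.2, 120.2, 184 and 119.7 in eGFP. It was 5.80-fold lower in eGFP (-2.54 ± 0.24, adjusted p = 6.84e-07) and 4.2-fold lower in eGFP/tdTomato (-2.07 ± 0.24, adjusted p = 5.57e-06), with a wide gap between the tdTomato libraries and the rest.

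In the last stretch, from lanosterol to cholesterol, 8 of 9 enzymes were lower in eGFP than in tdTomato and 1 was higher, and in eGFP/tdTomato 5 were lower and 1 higher. Ebp (ENSMUSG00000031168, chrX:8185329-8193512, minus strand), the isomerase that shifts a double bond in the sterol nucleus, stood at 156, 177, 217 and 161 CPM in tdTomato, 31.2, 30.4, 40.3 and 33.9 in eGFP/tdTomato and 27.3, 35.5, 28.4 and 31.5 in eGFP. The eGFP and eGFP/tdTomato libraries overlapped with each other and lay far under tdTomato, a difference of 5.80-fold for eGFP (-2.54 ± 0.18, adjusted p = 1.87e-08) and 5.24-fold for eGFP/tdTomato (-2.39 ± 0.18, adjusted p = 3.60e-08). Hsd17b7 (ENSMUSG00000026675, chr1:169949535-169969241, minus strand), the ketosteroid reductase of the demethylation steps, stood at 274, 254, 311 and 189 CPM in tdTomato, 77.7, 65.9, 81.0 and 71.6 in eGFP/tdTomato and 35.9, 68.1, 63.4 and 66.0 in eGFP. It was 4.41-fold lower in eGFP (-2.14 ± 0.22, adjusted p = 1.48e-06) and 3.47-fold lower in eGFP/tdTomato (-1.80 ± 0.22, adjusted p = 9.39e-06).

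Other enzymes of this stretch differed less. Cyp51 (ENSMUSG00000001467, chr5:4081145-4104746, minus strand), the lanosterol demethylase, stood at 919.5, 1020, 1321 and 891 CPM in tdTomato, 567, 502, 697 and 602 in eGFP/tdTomato and 218, 367, 514 and 436 in eGFP, lower by -1.44 ± 0.24 in eGFP (adjusted p = 2.19e-04) and by -0.81 ± 0.24 in eGFP/tdTomato (adjusted p = 0.0172). The call in eGFP/tdTomato was lost without eGFP/tdTomato replicate 1 or 2 or tdTomato replicate 3, at an adjusted p of 0.0522 to 0.078. Sc5d, a sterol desaturase, was at 541 ± 75.7, 318 ± 28.6 and 229.5 ± 43.9 CPM in tdTomato, eGFP/tdTomato and eGFP, and was called in both comparisons (-1.24 ± 0.18, adjusted p = 5.47e-05, and -0.77 ± 0.18, adjusted p = 0.00368). Msmo1, a methyl oxidase of the demethylation steps, stood at 869.5, 1041, 1225 and 877 CPM in tdTomato, 809.6, 649, 832 and 725 in eGFP/tdTomato and 297, 526, 587 and 483 in eGFP. Every library of one fraction was separated from the next for Msmo1, but only the step from tdTomato to eGFP passed the test (-1.08 ± 0.21, adjusted p = 8.42e-04). The comparison of eGFP/tdTomato with tdTomato gave -0.41 ± 0.21 (adjusted p = 0.162) and passed without eGFP replicate 1 or eGFP/tdTomato replicate 3 (adjusted p = 0.00471 and 0.0464). Msmo1 also passed with TMM factors from protein-coding genes (adjusted p = 0.0383), the 1 CPM filter (0.0173), DESeq2 (0.0288) and the 2 fractions alone (0.0227). Nsdhl, the dehydrogenase of the same steps, was at 221 ± 15.3, 178 ± 25.4 and 139 ± 34.3 CPM in tdTomato, eGFP/tdTomato and eGFP and passed in eGFP alone (-0.68 ± 0.19, adjusted p = 0.0113). For eGFP/tdTomato it gave -0.32 ± 0.19 (adjusted p = 0.223), and -0.55 without eGFP replicate 1 (adjusted p = 0.0153). Nsdhl also passed with the 1 CPM filter (adjusted p = 0.0256), DESeq2 (0.0499) and the 2 fractions alone (0.0361).

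Dhcr7, the reductase that completes cholesterol, had nearly equal means in tdTomato and eGFP/tdTomato. It stood at 304, 329.7, 513 and 328 CPM in tdTomato, 295, 296, 488 and 363 in eGFP/tdTomato and 115, 187, 324 and 205 in eGFP, with overlapping ranges in each pair. The difference from tdTomato was -0.03 ± 0.28 for eGFP/tdTomato (adjusted p = 0.936) and -0.83 ± 0.28 for eGFP (adjusted p = 0.0338), and the second was not called without eGFP replicate 2, tdTomato replicate 2 or tdTomato replicate 3 (adjusted p = 0.0515 to 0.133).

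Tm7sf2 was the one synthesis enzyme that was higher outside tdTomato, and it shares its reaction with Lbr, which was lower there. Both are reductases of the same sterol double bond, and Lbr is also the lamin B receptor of the inner nuclear membrane. Tm7sf2 (ENSMUSG00000024799, chr19:6062821-6068373, minus strand) stood at 77.5, 64.9, 104 and 66.7 CPM in tdTomato, 199, 181, 301 and 236 in eGFP/tdTomato and 72.6, 137, 222 and 142 in eGFP. All eGFP/tdTomato libraries were above all tdTomato libraries (2.93-fold, 1.55 ± 0.29, adjusted p = 5.96e-04), whereas eGFP overlapped with tdTomato through replicate 1 (1.83-fold, 0.87 ± 0.28, adjusted p = 0.0258). The call in eGFP was lost without tdTomato replicate 1, 2 or 5, eGFP replicate 3 or 5 or eGFP/tdTomato replicate 3, at an adjusted p of 0.0633 to 0.136. Lbr (ENSMUSG00000004880, chr1:181815335-181843046, minus strand) stood at 47.2, 64.6, 58.8 and 49.6 CPM in tdTomato, 37.7, 31.3, 36.9 and 35.3 in eGFP/tdTomato and 31.0, 34.8, 35.7 and 34.0 in eGFP, lower by -0.70 ± 0.16 in eGFP (adjusted p = 0.00238) and -0.64 ± 0.16 in eGFP/tdTomato (adjusted p = 0.00520). Tm7sf2 shares 12.08% of its exon bases with Vps51 on the same strand, a gene at a mean of 26.3 to 31.8 CPM, and Lbr shares 10.69%, most of it with Dnah14 on the other strand.

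**Figure D2:**
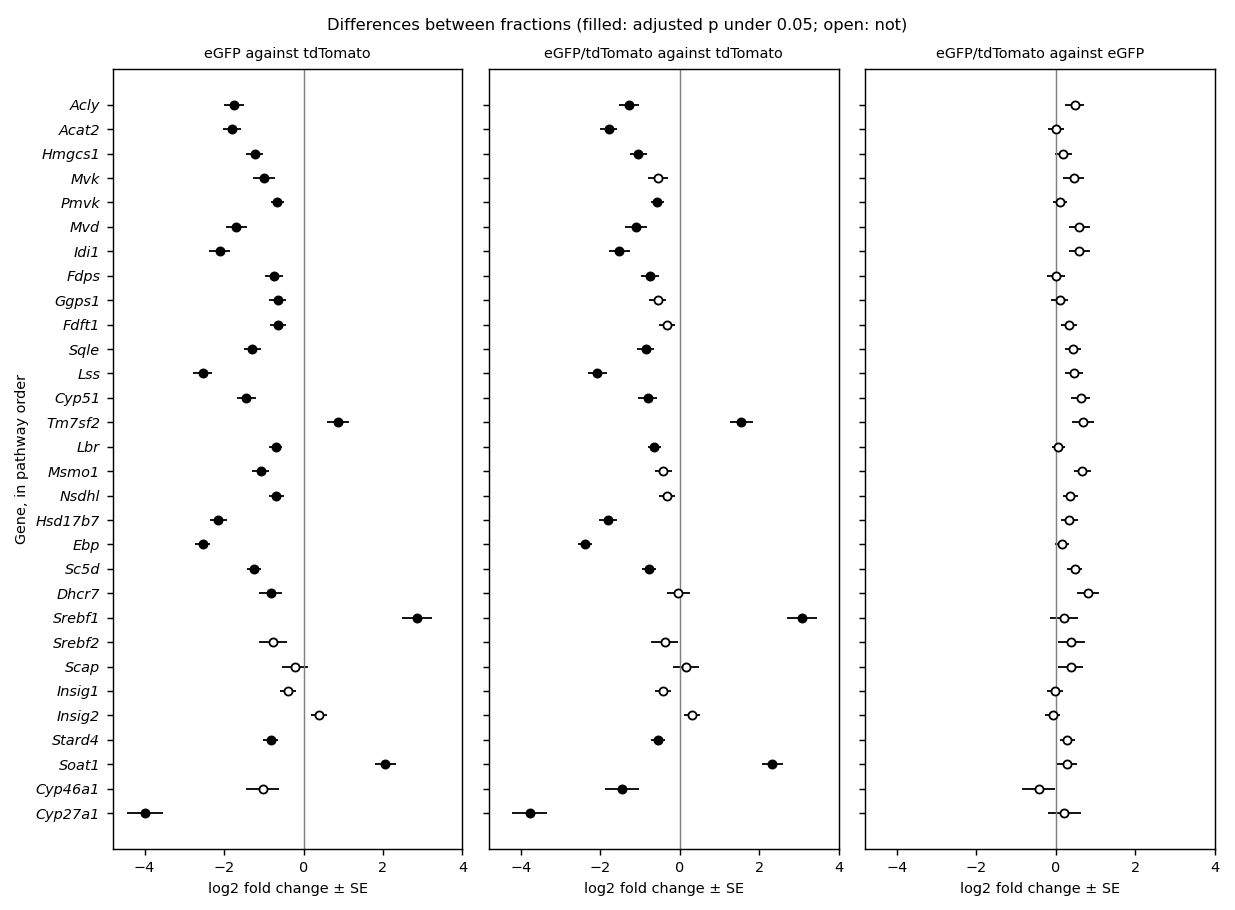
Log2 fold change ± SE of all 30 members in pathway order for the 3 comparisons, with filled points for an adjusted p under 0.05. Most points lie left of 0 in the comparisons against tdTomato, Tm7sf2, Srebf1 and Soat1 lie right of 0, and none is filled for eGFP/tdTomato against eGFP.

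Of the 5 SREBP control genes, 1 was called, Srebf1, and it was higher outside tdTomato. Srebf1 (ENSMUSG00000020538, chr11:60199089-60222581, minus strand) encodes the SREBP known mainly for fatty acid synthesis, and stood at 34.4, 22.5, 51.0 and 30.3 CPM in tdTomato, 178, 255, 422 and 309 in eGFP/tdTomato and 133, 209.5, 444 and 219 in eGFP. The lowest library outside tdTomato was above the highest tdTomato library, a difference of 7.28-fold for eGFP (2.86 ± 0.38, adjusted p = 1.98e-05) and 8.43-fold for eGFP/tdTomato (3.08 ± 0.38, adjusted p = 1.13e-05). Replicate 3 had the highest Srebf1 level in each fraction. Srebf2 (ENSMUSG00000022463, chr15:82147181-82205379, plus strand), the SREBP known mainly for cholesterol synthesis, stood at 352, 274, 518 and 299.6 CPM in tdTomato, 163, 237, 398 and 317 in eGFP/tdTomato and 129, 162, 387 and 171 in eGFP. Here all fractions overlapped, and neither eGFP (-0.77 ± 0.35, adjusted p = 0.0980) nor eGFP/tdTomato (-0.37 ± 0.34, adjusted p = 0.419) passed the test against tdTomato. In eGFP, Srebf2 was at 387 CPM in replicate 3 against 129 to 171 in the others, and without that library the difference from tdTomato was -1.24 (adjusted p = 0.00391). It was also called without eGFP/tdTomato replicate 3 (-1.0, adjusted p = 0.0245), with the 1 CPM filter (-0.86, adjusted p = 0.0257), with DESeq2 (-0.84, adjusted p = 0.028) and with limma-voom (-0.84, adjusted p = 0.0488).

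Among the proteins that carry or hold the SREBPs, none passed the test. Scap, the escort to the Golgi, was at 64.4 ± 19.0 CPM in tdTomato, 72.1 ± 24.2 in eGFP/tdTomato and 55.7 ± 26.0 in eGFP, with -0.21 ± 0.32 for eGFP (adjusted p = 0.602) and 0.16 ± 0.32 for eGFP/tdTomato (adjusted p = 0.700). Insig1, a retention protein that is itself an SREBP target, stood at 643, 767, 639 and 444 CPM in tdTomato, 506, 413, 526 and 426 in eGFP/tdTomato and 529.6, 577, 419 and 372 in eGFP. Its ranges overlapped, with -0.39 ± 0.20 for eGFP (adjusted p = 0.139) and -0.41 ± 0.20 for eGFP/tdTomato (adjusted p = 0.142). Insig1 passed in eGFP without eGFP replicate 1, eGFP/tdTomato replicate 3 or tdTomato replicate 5 (adjusted p = 0.0393 to 0.0402). In eGFP/tdTomato it passed without any 1 of these or without eGFP replicate 5 (adjusted p = 0.0216 to 0.0436), and with the 1 CPM filter (0.0244), DESeq2 (0.0326) and the 2 fractions alone (0.0326). Insig2, the second retention protein, had the opposite sign, at 38.0 ± 7.41, 47.0 ± 3.07 and 49.8 ± 9.78 CPM in tdTomato, eGFP/tdTomato and eGFP, with 0.39 ± 0.19 (adjusted p = 0.123) and 0.31 ± 0.19 (adjusted p = 0.242). With the share of reads outside genes as a covariate Insig2 was called higher in both, at an adjusted p of 0.0121 and 0.0325.

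The 4 genes of transport, storage and removal went in both directions. Soat1 (ENSMUSG00000026600, chr1:156424525-156474331, minus strand), which esterifies cholesterol for storage, stood at 36.4, 74.4, 64.6 and 27.7 CPM in tdTomato, 292, 263, 256 and 214 in eGFP/tdTomato and 184, 249, 192 and 220.4 in eGFP. All libraries of both eGFP-bearing fractions were above tdTomato, 4.16-fold in eGFP (2.06 ± 0.27, adjusted p = 2.13e-05) and 5.04-fold in eGFP/tdTomato (2.33 ± 0.27, adjusted p = 6.82e-06). Cyp27a1 (ENSMUSG00000026170, chr1:74713574-74737892, plus strand), a mitochondrial sterol hydroxylase, stood at 57.3, 35.1, 66.6 and 41.9 CPM in tdTomato, 3.31, 2.15, 3.62 and 5.52 in eGFP/tdTomato and 4.51, 2.49, 0.828 and 4.83 in eGFP. It had the largest difference of the 30 members in either direction, 15.9-fold lower in eGFP (-3.99 ± 0.46, adjusted p = 4.58e-06) and 13.7-fold lower in eGFP/tdTomato (-3.78 ± 0.45, adjusted p = 7.59e-06).

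Cyp46a1, the hydroxylase through which cholesterol leaves the brain and which is known from neurons, stood at 29.1, 25.9, 58.6 and 47.0 CPM in tdTomato, 7.64, 12.8, 22.3 and 15.7 in eGFP/tdTomato and 7.25, 13.8, 35.0 and 22.5 in eGFP. It was lower in eGFP/tdTomato (-1.46 ± 0.43, adjusted p = 0.0174), a call lost without eGFP/tdTomato replicate 1 or 2 or tdTomato replicate 3 (adjusted p = 0.0514 to 0.0588). In eGFP it did not pass (-1.03 ± 0.42, adjusted p = 0.0730). It passed there with RLE factors (adjusted p = 0.0485), the filter of 1 CPM in 4 libraries (0.0261), DESeq2 (0.0206), limma-voom (0.0407) and the 2 fractions alone (0.05). It also passed without eGFP replicate 3 (-1.47, adjusted p = 0.0107) or eGFP/tdTomato replicate 3 (-1.25, adjusted p = 0.0212). The summed level of 7 neuron markers was 428 to 646 CPM in tdTomato, 29.7 to 49.3 in eGFP/tdTomato and 46.9 to 62.0 in eGFP. Of the 7, 4 were lower and 0 higher in eGFP/tdTomato than in tdTomato, and 2 were lower and 1 higher in eGFP. No defining marker was at 0 in all libraries of a fraction, and their part in the Cyp46a1 result was not tested. Stard4, which shuttles cholesterol between membranes, was at 86.7 ± 13.9, 59.6 ± 7.48 and 48.6 ± 9.0 CPM in tdTomato, eGFP/tdTomato and eGFP. It was lower in eGFP (-0.83 ± 0.18, adjusted p = 0.00199) and in eGFP/tdTomato (-0.54 ± 0.18, adjusted p = 0.0353), the latter lost without tdTomato replicate 1, 2 or 3, eGFP/tdTomato replicate 1, 2 or 5 or eGFP replicate 2, at an adjusted p of 0.0549 to 0.137.

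**Figure D3:**
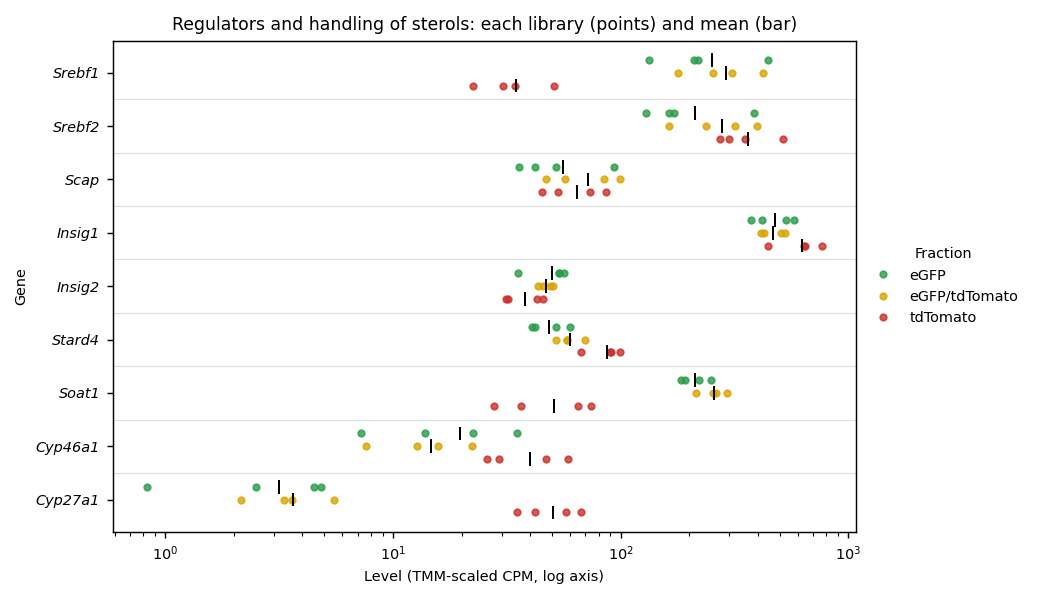
Level of the 5 SREBP control genes and the 4 genes of transport, storage and removal in each library (TMM-scaled CPM, log axis), with a black bar at the mean of 4 libraries. Srebf1 and Soat1 of tdTomato lie left of all other libraries and Cyp27a1 of tdTomato right of them, while Srebf2, Scap, Insig1 and Insig2 overlap.

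Between the fractions that carry eGFP, no member passed the test. In eGFP/tdTomato against eGFP, 0 of 30 were called higher, beside 0.814% of all genes tested, and 0 lower, beside 1.67%. DESeq2 called 1 member higher, Msmo1, beside 549 of 29361 genes, and limma-voom 0, beside 335. Neither called a member lower, beside 949 and 610 genes. At an unadjusted p under 0.05, 7 members were higher (Mvd, Idi1, Cyp51, Tm7sf2, Msmo1, Sc5d and Dhcr7) and 0 lower, and over all tested genes 1489 were higher and 1432 lower at that level. The log2 fold change was above 0 for 27 of 30 members, with a median of 0.34, against -0.02 over all tested genes and 0.07 over protein-coding genes of at least 1 CPM. Leaving out eGFP replicate 1 moved that median to 0.16 with 21 above 0, leaving out eGFP/tdTomato replicate 3 moved it to 0.20, and leaving out eGFP replicate 3 moved it to 0.51.

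All 4 eGFP/tdTomato libraries were above all 4 eGFP libraries for 3 members, Idi1, Sqle and Msmo1, where 3.75% of all genes were so placed, and below for 0, where 4.18% were. The largest difference was that of Dhcr7 (0.80 ± 0.28, adjusted p = 0.24), followed by Tm7sf2 (0.68 ± 0.28, adjusted p = 0.382) and Msmo1 (0.67 ± 0.21, adjusted p = 0.146). Dhcr7 was called higher without eGFP replicate 3 (1.11, adjusted p = 0.0343) and so was Mvd (0.93, adjusted p = 0.0401). At the other end, Acat2 (0.00 ± 0.21), Fdps (0.01 ± 0.23), Insig1 (-0.02 ± 0.20) and Lbr (0.06 ± 0.16) were near 0, and Cyp46a1 had the lowest value (-0.43 ± 0.42). A difference that missed the threshold does not show that these fractions are alike. Other cells in the eGFP libraries moved with this comparison: 9 microglia and macrophage markers summed to 79.2 to 1054 CPM in eGFP and 21.2 to 29.9 in eGFP/tdTomato, with 7 lower in the latter, 7 fibroblast and mural markers to 752 to 2082 and 345 to 548, with 4 lower, and 6 ependymal markers to 118 to 263 and 7.57 to 14, with 6 lower. Of 8 oligodendrocyte markers 5 were higher in eGFP/tdTomato, as were 3 of 5 oligodendrocyte progenitor, 2 of 8 astrocyte and 1 of 7 neuron markers. No marker of these lists was at 0 in all libraries of a fraction, and their part in the differences was not tested.

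Levels are set beside each other between genes per kilobase of exon, with all annotated exons of a gene merged. The transcripts present may be shorter, by an amount that differs between genes, so the order of genes is approximate. In every fraction Hmgcs1 was the highest of the 30 members, at 584 ± 88.4 CPM per kb in tdTomato, 285 ± 44.7 in eGFP/tdTomato and 249 ± 64.5 in eGFP. In tdTomato it was followed by Acat2 (353 ± 75.0 CPM per kb), Cyp51 (235 ± 44.5) and Insig1 (202 ± 43.1), of which Cyp51 and Insig1 lay within each other's SD. In eGFP it was followed by Insig1 (153 ± 30.7 CPM per kb) and Acat2 (102 ± 14.3), and in eGFP/tdTomato by Insig1 (151 ± 18.3) and Cyp51 (134 ± 18.4), the last pair within each other's SD. The lowest member was Cyp27a1 in eGFP (1.46 ± 0.861 CPM per kb) and eGFP/tdTomato (1.68 ± 0.643), while in tdTomato, where Cyp27a1 was at 23.1 ± 6.61, the lowest were Soat1 (5.19 ± 2.28) and Srebf1 (6.13 ± 2.14), within each other's SD.

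Ratios of members within a library, per kilobase of exon, do not depend on scaling, and the pairs were chosen after their values had been seen, so they are given as a description. Tm7sf2 over Lbr was 5.71, 6.26, 8.82 and 7.22 in the eGFP/tdTomato libraries, 2.53, 4.27, 6.72 and 4.5 in eGFP and 1.78, 1.09, 1.91 and 1.46 in tdTomato. Every library of the eGFP-bearing fractions was thus above every tdTomato library. The size of a ratio depends on the merged exon lengths of both genes, while its change between fractions does not. Srebf1 over Srebf2 was 1.31 to 1.65 in eGFP, 1.24 to 1.39 in eGFP/tdTomato and 0.105 to 0.129 in tdTomato. Each fraction kept this ratio in a narrow band although both genes were highest in replicate 3 of each fraction. Soat1 over Sqle, storage against synthesis, was 0.261 to 0.468 in eGFP, 0.259 to 0.356 in eGFP/tdTomato and 0.0222 to 0.0469 in tdTomato.

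Enzymes of one stretch were also present in other proportions. Ebp over Nsdhl was 0.802, 1.03, 1.19 and 0.962 in the tdTomato libraries, against 0.192 to 0.338 in eGFP and 0.196 to 0.269 in eGFP/tdTomato. Hsd17b7 over Nsdhl was 0.512 to 0.769 in tdTomato, 0.194 to 0.291 in eGFP and 0.212 to 0.263 in eGFP/tdTomato, and Lss over Sqle was 0.393 to 0.468, 0.161 to 0.227 and 0.162 to 0.216. For these 3 ratios every tdTomato library was above every other library, and the eGFP and eGFP/tdTomato ranges overlapped. Insig1 over Insig2 ran from 15.9 to 22.6 in tdTomato, 7.79 to 16.9 in eGFP and 9.24 to 12.4 in eGFP/tdTomato, with eGFP replicate 1 inside the tdTomato range. Cyp27a1 over Cyp46a1 was 1.35 to 2.98 in tdTomato and 0.0358 to 0.943 in eGFP, where it rests on few Cyp27a1 reads.

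**Figure D4:**
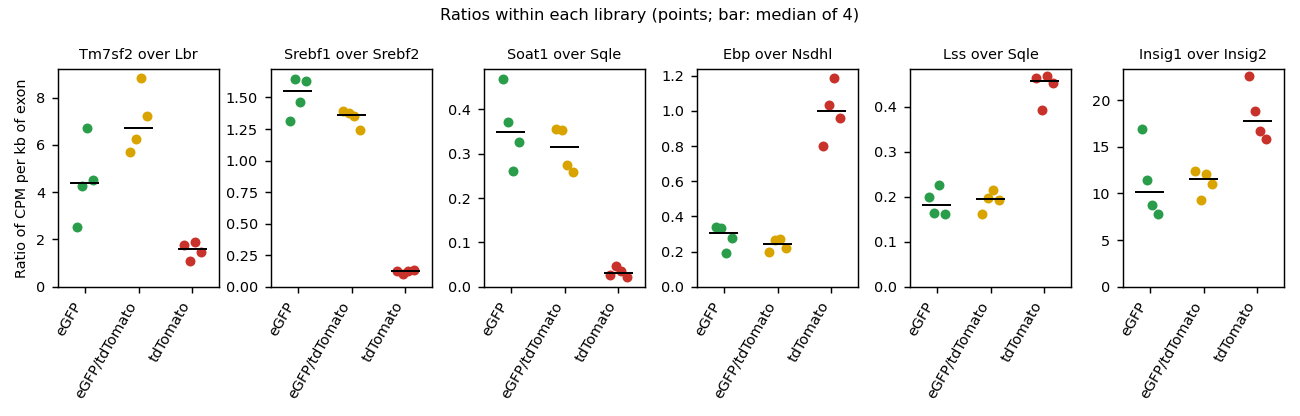
Ratio of CPM per kb of exon between 2 members in each library, for 6 pairs, with a bar at the median of 4 libraries and its own linear axis from 0 in each panel. The eGFP and eGFP/tdTomato points overlap in all 6 panels, and tdTomato lies apart except for Insig1 over Insig2, where 1 eGFP library reaches it.

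The members also varied together between libraries of a fraction. Replicate 3 was the highest library of its fraction for 22 of 30 members in eGFP, 22 in eGFP/tdTomato and 21 in tdTomato, while among protein-coding genes of at least 1 CPM it was the highest for 41.56, 45.33 and 38.4%. For 18 members, among them Acly, Mvd, Lss, Cyp51, Dhcr7, Srebf1 and Srebf2, replicate 3 was the highest library in all 3 fractions. The same count was not made over all genes, so it cannot be set against a background. The replicate 3 libraries had the lowest share of reads outside genes in their fractions, 29.05, 25.61 and 21.24%. They also had the lowest TMM factors, 0.9537 in eGFP, 0.8773 in eGFP/tdTomato and 0.7763 in tdTomato, which raises every level in them. The highest factor was that of eGFP replicate 1, 1.443, which lowers every level there. The part of that share and of the factors in this pattern was not tested. At the low end, eGFP replicate 1 was the lowest eGFP library for 25 of 30 members and for 50.78% of those protein-coding genes. Acat2 and Insig1 were among the members that did not follow. Their eGFP levels were 265, 308, 231 and 230.3 and 529.6, 577, 419 and 372 CPM. Both were highest in replicate 2 and lower in replicate 3 than in replicate 1.

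Of 54 other genes of the pathway that were found by symbol, 53 were tested. Against tdTomato, eGFP was higher for 16 and lower for 16 (median -0.23), beside 20.4% higher and 14.9% lower among all genes tested. For eGFP/tdTomato 19 were higher and 10 lower (median 0.28), beside 16.8% and 12.4%. Among 14947 tested protein-coding genes of at least 1 CPM, 4167 were higher and 3866 lower in eGFP than in tdTomato. For eGFP/tdTomato 3700 of them were higher and 3159 lower. These shares are larger than those over all genes tested. In eGFP/tdTomato against eGFP, 2 were higher and 1 lower (median 0.28), beside 0.814% and 1.67%. In the isoprenoid branches, which feed ubiquinone, dolichol and protein prenylation, 5 of 11 were lower in eGFP and 0 higher, with Fntb, the catalytic subunit of farnesyltransferase, at 324 ± 80.5 CPM in tdTomato and 29.4 ± 9.12 in eGFP (11-fold, -3.46 ± 0.26, adjusted p = 4.64e-08). In SREBP processing and sterol-regulated turnover, 2 of 8 were higher and 2 lower in eGFP, and 4 higher and 1 lower in eGFP/tdTomato. The accessory proteins of sterol enzymes gave 1 higher and 1 lower of 5 in eGFP.

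Oxysterol and sterol ester enzymes were higher outside tdTomato, 4 of the 5 tested in each comparison and 0 lower. Over all genes tested, 20.4% were higher and 14.9% lower in eGFP, and 16.8% and 12.4% in eGFP/tdTomato. Among these 4 enzymes was a gene near the floor, at a mean of 0.0593 CPM in tdTomato, 1.16 in eGFP/tdTomato and 2.5 in eGFP. Lcat, the secreted enzyme that esterifies cholesterol on lipoproteins, stood at 2.85, 2.68, 2.45 and 2.14 CPM in tdTomato, 296, 328, 422 and 363 in eGFP/tdTomato and 117, 221, 251 and 194 in eGFP. It was 77.3-fold higher in eGFP (6.27 ± 0.27, adjusted p = 3.24e-10) and 139-fold in eGFP/tdTomato (7.12 ± 0.28, adjusted p = 2.10e-10). Cyp7b1, an oxysterol hydroxylase, stood at 55.5, 52.1, 73.2 and 44.8 CPM in eGFP/tdTomato, 16.2, 17.0, 26.0 and 24.9 in eGFP and 3.34, 3.01, 4.05 and 2.29 in tdTomato. All 3 fractions were separated, and Cyp7b1 was higher in eGFP/tdTomato than in tdTomato (4.15 ± 0.26, adjusted p = 7.90e-09) and than in eGFP (1.42 ± 0.23, adjusted p = 0.00255).

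SREBP targets of fatty acid synthesis were 4 higher and 2 lower of 10 in eGFP, beside 20.4% and 14.9% of all genes. In eGFP/tdTomato 5 were higher and 1 lower, beside 16.8% and 12.4%, so the lower counts are near the background. Scd1, a desaturase of saturated fatty acids, was at 865 ± 199.6 CPM in eGFP, 935 ± 166 in eGFP/tdTomato and 55.3 ± 11.5 in tdTomato (15.6-fold in eGFP, 3.97 ± 0.24, adjusted p = 5.72e-09). Fads2, a desaturase of polyunsaturated fatty acids, was at 841 to 1800 CPM in eGFP/tdTomato and 53.0 to 94.9 in tdTomato (4.34 ± 0.41, adjusted p = 6.71e-07). Elovl6, which elongates saturated chains, went the other way, at 662, 520.4, 664 and 469.6 CPM in tdTomato, 96.0, 86.9, 124 and 106 in eGFP/tdTomato and 38.3, 63.5, 69.0 and 57.3 in eGFP. It was 10.2-fold lower in eGFP than in tdTomato (-3.34 ± 0.22, adjusted p = 1.44e-08). Its difference between eGFP/tdTomato and eGFP (0.86 ± 0.21, adjusted p = 0.0388) was lost without any 1 library other than eGFP replicate 3 or tdTomato replicate 5, at an adjusted p of 0.0524 to 0.299, and also with no filter (0.0502) and the 2 fractions alone (0.0841).

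Sterol trafficking genes and liver X receptors split, 5 higher and 6 lower of 14 in eGFP and 5 and 5 in eGFP/tdTomato. The shares of all genes tested were 20.4% higher and 14.9% lower in eGFP, and 16.8% and 12.4% in eGFP/tdTomato. Nceh1, a cholesterol ester hydrolase, was at 60.3 to 78.4 CPM in tdTomato and 5.66 to 7.50 in eGFP/tdTomato (-3.35 ± 0.20, adjusted p = 4.32e-09). Nr1h3, the liver X receptor alpha, an oxysterol receptor that drives Srebf1, was at 5.62 to 8.08 CPM in eGFP and 0.149 to 0.782 in tdTomato (15.4-fold, 3.95 ± 0.42, adjusted p = 2.12e-06). Gramd1c, a sterol transfer protein of the endoplasmic reticulum, was lower in eGFP/tdTomato (10.2, 13.6, 10.5 and 11 CPM) than in eGFP (20.7, 23.9, 23.2 and 25.8), by -1.05 ± 0.26 (adjusted p = 0.0477), a call lost without any 1 library other than eGFP replicate 1 or tdTomato replicate 2 or 5, at an adjusted p of 0.0537 to 0.164.

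**Figure D5:**
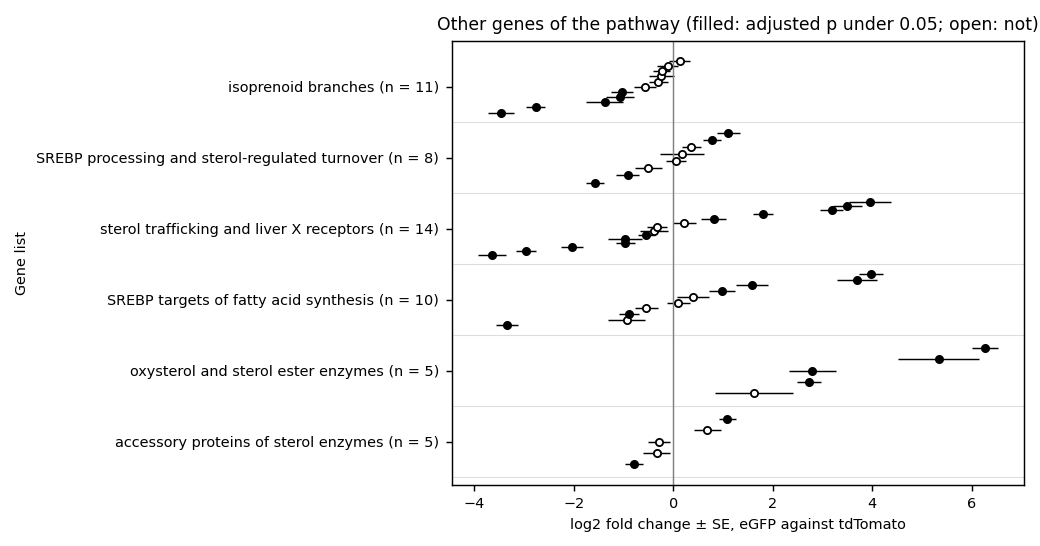
Log2 fold change ± SE of the 53 other pathway genes tested, eGFP against tdTomato, grouped by list, with filled points for an adjusted p under 0.05. Isoprenoid genes that passed lie left of 0, oxysterol and sterol ester enzymes right of 0, and the other lists have filled points on both sides.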

How the data were processed

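RNA of 12 libraries from 3 sorted spinal cord fractions, 4 libraries each, was measured by sequencing. The authors deposited raw counts per Ensembl gene, 1 table per library, made with STAR and HTSeq on GRCm38/mm10 per the submitters' processing notes, while versions, annotation release and strand setting are not given in the sources used here. Lines that name no gene (reads outside genes, ambiguous and multiply aligned reads) were kept out of library sizes, and reads outside genes were 21.24 to 57.15% of a library. The identifiers were named with GENCODE M21, which held 53360 of 53465 (99.8%). No 2 libraries were identical.

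In R 4.3.3, edgeR 4.0.16 was run on the counts after its filterByExpr step by fraction and TMM scaling, with a robust quasi-likelihood fit of all 12 libraries, the fraction as its only term, and Benjamini-Hochberg adjustment over 29361 genes. The SE is the size of the log2 fold change over the root of F. Library totals were 12564767 to 36505583 gene counts, and the spread between 4 libraries sets the precision. The fit was tested on simulated data. Alternatives were RLE factors, TMM factors from protein-coding genes, other filters, DESeq2 1.42.0, limma 3.58.1 (voom), the 2 compared fractions alone, a replicate block, the share of reads outside genes as a covariate, and leaving out each library.

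The members and lists were chosen with earlier results of these data known. All members are named, and of the other pathway genes at most 3 per comparison and direction, those with the largest change among called genes of at least 5 CPM in the higher fraction. Exon overlaps came from GENCODE M21, similar transcripts from alignments of at least 95% identity over 200 bases, and promoters from RefSeq (GRCm38.p6). Promoter entries were not used for 4 members, and some genes of the pathway are not reported here.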

Additional observations from a re-analysis of the deposited data

Results flagged for a closer look

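In 7 of the 90 sets of 4 libraries (30 members in 3 fractions) 1 library lay apart from the other 3 by Dixon's criterion, which chance alone meets in about 1 set in 20. High libraries were Acat2 in eGFP/tdTomato replicate 1 (361.8 CPM, others 212.5 to 233.7), Fdps in eGFP replicate 3 (30.97 CPM, others 15.38 to 17.92) and in tdTomato replicate 3 (41.5 CPM, others 30.47 to 31.44), Dhcr7 in tdTomato replicate 3 (513.1 CPM, others 303.8 to 329.7) and Srebf2 in eGFP replicate 3 (386.5 CPM, others 129.0 to 171.2). Low libraries were both eGFP replicate 1: Hsd17b7 (35.89 CPM, others 63.41 to 68.11) and Insig2 (35.22 CPM, others 53.63 to 56.52). Of the 7, 4 are replicate 3 libraries and 2 are eGFP replicate 1. Without these libraries the Hsd17b7 differences from tdTomato were called as before, and the calls of Fdps and Dhcr7 that depended on tdTomato replicate 3 are given with the results.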

How the results depend on the processing

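The count of members called higher in eGFP/tdTomato than in eGFP was 0, and became 1 with DESeq2 (Msmo1), 2 with the replicate block (Mvd, Dhcr7), 3 with the share of reads outside genes as a covariate (Cyp51, Msmo1, Dhcr7) and 0 to 2 when 1 library was left out, with 2 without eGFP replicate 3. Over all genes the higher calls also rose, from 239 to 549 with DESeq2, 566 with the block, 479 with the covariate and 475 without eGFP replicate 3. The cause was not tested. Members called lower there were 0 in all settings. Against tdTomato, lower calls were 16 to 25 in eGFP (22 as reported) and 12 to 23 in eGFP/tdTomato (17 as reported), and higher calls 2 to 4 and 3 to 4, all within 1.5 times of the reported counts. Over all genes, lower calls ran from 3514 to 5625 in eGFP and from 2888 to 5452 in eGFP/tdTomato over the same settings. Higher calls over all genes ran from 4359 to 7632 and from 3767 to 6232. No called difference changed sign. Over all settings the median log2 fold change of the members ran from -1.23 to -0.55 in eGFP against tdTomato, from -0.98 to -0.45 in eGFP/tdTomato against tdTomato and from 0.16 to 0.51 in eGFP/tdTomato against eGFP. RLE factors moved the median of all tested genes from 0.70 to 0.57 in eGFP/tdTomato against tdTomato, and that of the members from -0.60 to -0.71.

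The covariate also ended the calls of Dhcr7, Fdft1, Fdps, Ggps1, Mvk and Nsdhl in eGFP against tdTomato (adjusted p = 0.0688 to 0.318) and of Cyp46a1, Fdps and Stard4 in eGFP/tdTomato against tdTomato (adjusted p = 0.0547 to 0.0802). With the replicate number as a block, 24 members were lower in eGFP than in tdTomato and 19 in eGFP/tdTomato, beside 5039 and 4133 of 29361 genes. The block added Srebf2 and Cyp46a1 in eGFP (adjusted p = 0.00291 and 0.000349) and Mvk and Ggps1 in eGFP/tdTomato (adjusted p = 0.0223 and 0.0488). Libraries with the same number had correlated deviations of 0.524 to 0.682 in replicate 3 and 0.154 to 0.319 in replicate 5. In replicates 1 and 2 these ran from -0.083 to 0.300 and from -0.221 to 0.166. Libraries with different numbers ran from -0.675 (eGFP replicate 1 with eGFP/tdTomato replicate 3) to 0.547 (eGFP replicate 1 with eGFP/tdTomato replicate 2). The labels do not say what libraries of the same number share, so the main fit held no block. These correlations do not settle whether the numbers mark pairs.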
